A study of Mus musculus and Bos taurus with 2 samples.

Results

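The unspliced models between genes are transcript models of the mouse embryo that have a single exon and are classed as lying outside the genes of the annotation the submitters used. Members were chosen by 2 values of the deposited models, which are therefore no result: class code u, which marks a model between annotated genes, and exactly 1 exon. In mouse, 2232 of 42028 models met both conditions, or 5.31% (5.10% to 5.53%). Brackets give exact Clopper-Pearson 95% bounds, and these reflect counting error alone. The same rule took 466 of 40819 bovine models, or 1.14% (1.04% to 1.25%), and these served as the background.

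The mouse library came from late 2-cell embryos, made in vitro from oocytes of superovulated Slc:ICR mice and collected 36 h after insemination. The bovine library came from 8-cell to 16-cell embryos, made in vitro from oocytes of Japanese Black cows or their F1 cross with Holstein and sperm of a Japanese Black bull, and collected at 72 h. No drug treatment or gene alteration is given in the labels for either. Each library pooled about 200 embryos and carries polyadenylated RNA read as amplified cDNA on a nanopore sequencer. With 1 library per species there is no replicate error and no test, and species cannot be told apart from stage, collection time and annotation. As a check of the label, 24 of 31 listed genes of the mouse 2-cell burst and 19 of 22 maternal oocyte genes had a model on their own strand. So did 5 of 10 cumulus and granulosa, 2 of 6 sperm and 1 of 6 blood genes. For comparison, such a model was present for 14090 genes, out of 56455 gene symbols in all. The shares for cumulus and granulosa and for sperm genes were thus also above that of all genes, on few genes each. All lists were chosen with earlier results of these data known, so these shares are a weak check of the label. The part of cumulus, granulosa, sperm and blood cells in the members was not tested. No count of reads comes with the models, which leaves their depth unknown.

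Much of the DNA between genes consists of copies of transposable elements. Short interspersed elements such as the rodent B2 family are brief, have no protein-coding part and carry their own promoter for RNA polymerase III. Endogenous retroviruses and their relatives instead begin and end with the same long terminal repeat, and their RNA starts inside the first repeat and ends inside the second, so that a complete RNA has the same stretch near both ends. The mouse embryo at the 2-cell stage is known for strong transcription of MERVL, an endogenous retrovirus, whose repeat (MT2) also starts RNAs that splice into neighbouring genes. No genome sequence or repeat annotation was used here, so reference bases were known only where an annotated exon of either strand or the promoter window of a gene covers a model. At least 50 reference bases were known for 71 members, and the first 100 bases were all known for 45. These members lie in or beside annotated transcripts, so they do not represent the others.

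The first set of sequences shows how short members began. They are the first 80 bases of 6 members, 5′ to 3′ on the strand of the model, named by the annotated gene whose exon covers them. Capitals mark the run GATGGCTCAG, bases 11 to 20 of the first of them. The annotated exon is on the strand of the model only for Gm43684 and on the opposite strand for the others.
Gm37696 (chr3:61359524-61359603, plus strand): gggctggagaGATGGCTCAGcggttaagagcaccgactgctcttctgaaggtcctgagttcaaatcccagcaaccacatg
Gm45694 (chr8:71984215-71984294, minus strand): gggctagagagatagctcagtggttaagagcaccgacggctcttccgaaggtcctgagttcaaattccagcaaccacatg
AC132253.6 (chr19:9865895-9865974, plus strand): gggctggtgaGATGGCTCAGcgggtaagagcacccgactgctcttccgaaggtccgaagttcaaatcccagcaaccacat
Gm43684 (chr5:122782659-122782738, plus strand): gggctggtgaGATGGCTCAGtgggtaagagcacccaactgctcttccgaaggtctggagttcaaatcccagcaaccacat
Gm10388 (chr6:149284952-149285031, plus strand): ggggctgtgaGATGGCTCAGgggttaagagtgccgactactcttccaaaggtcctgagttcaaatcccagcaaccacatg
Gm26707 (chr7:25818475-25818554, minus strand): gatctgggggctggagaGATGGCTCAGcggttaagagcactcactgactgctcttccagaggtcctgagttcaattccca
The 6 members lie on 6 chromosomes and read alike from their first or nearly first base. The run was not found in Gm45694, which therefore has no capitals.

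A member of 200 bases, the shortest length among all members, is shown whole. It lies on the minus strand of chromosome 4, and the exon of Gm37583 that covers it is on the opposite strand.
Gm37583 (chr4:136641412-136641611, minus strand): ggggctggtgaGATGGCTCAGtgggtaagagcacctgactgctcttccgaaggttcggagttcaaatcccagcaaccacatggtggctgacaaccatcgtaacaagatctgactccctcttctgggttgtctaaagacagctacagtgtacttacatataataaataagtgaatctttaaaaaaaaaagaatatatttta
For contrast, the first 80 bases of a 279-bp member on the minus strand of chromosome 12, which lies inside an exon of Gm34220, hold neither this start nor the run.
Gm34220 (chr12:108792661-108792740, minus strand): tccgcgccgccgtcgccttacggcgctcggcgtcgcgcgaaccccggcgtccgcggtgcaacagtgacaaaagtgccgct

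The first 180 bases of the Gm37696 member, chosen after the likeness had been seen, were aligned with the first 100 bases of the 45 members. A match was found in 17 of the 45, or 37.8% (23.8% to 53.5%), the Gm37696 member itself included. Only a likeness inside the first 100 bases counted, so the position of the matches near the start is in part set by this choice. Within it, all 17 began within 20 bases of the start of the model, with a median at base 2 and the latest at base 16. Over all known bases there was 1 further alignment, which did not count: in the 797-bp member in 2810403D21Rik it began at base 261 and ran over 177 aligned bases at 86.4% identity. For the 17, alignments over all known bases went past base 100 in most members, and without the member that supplied the sequence their identity ran from 79.1% to 92.3% with a median of 87.6%. The matching models were 200 to 526 bp long. Among members under 450 bp the match was found in 16 of 26 (61.5%, 40.6% to 79.8%), and among longer ones in 1 of 19 (5.26%, 0.133% to 26.0%).

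The same comparison gave 57 of 18237 mouse models that are not members, which is 0.313%. Exact matches of an annotated transcript gave 0 of 12466 (0%, upper bound 0.0296%). Unspliced models inside introns gave 38 of 45, or 84.4%, so the start was not particular to models between genes. Spliced models between genes gave 1 of 98. The match was present on either strand in 0.712% of 32851 RefSeq promoter windows of 300 bases (build GRCm38.p6). As background, these letters are those of the B2 family, and its role in any single model was not tested.

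The run GATGGCTCAG, searched on the strand of the model, occurred in the first 100 bases of 15 of the 45 members (33.3%), and all 15 were under 450 bp. Its first base lay between positions 11 and 26, with a median of 12. It occurred in the first 100 bases of 0.016% of exact matches, 2 of 12466. On either strand, 0.581% of the RefSeq promoter windows held it. Such a match describes letters and is no evidence of a bound factor.

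**Figure D1:**
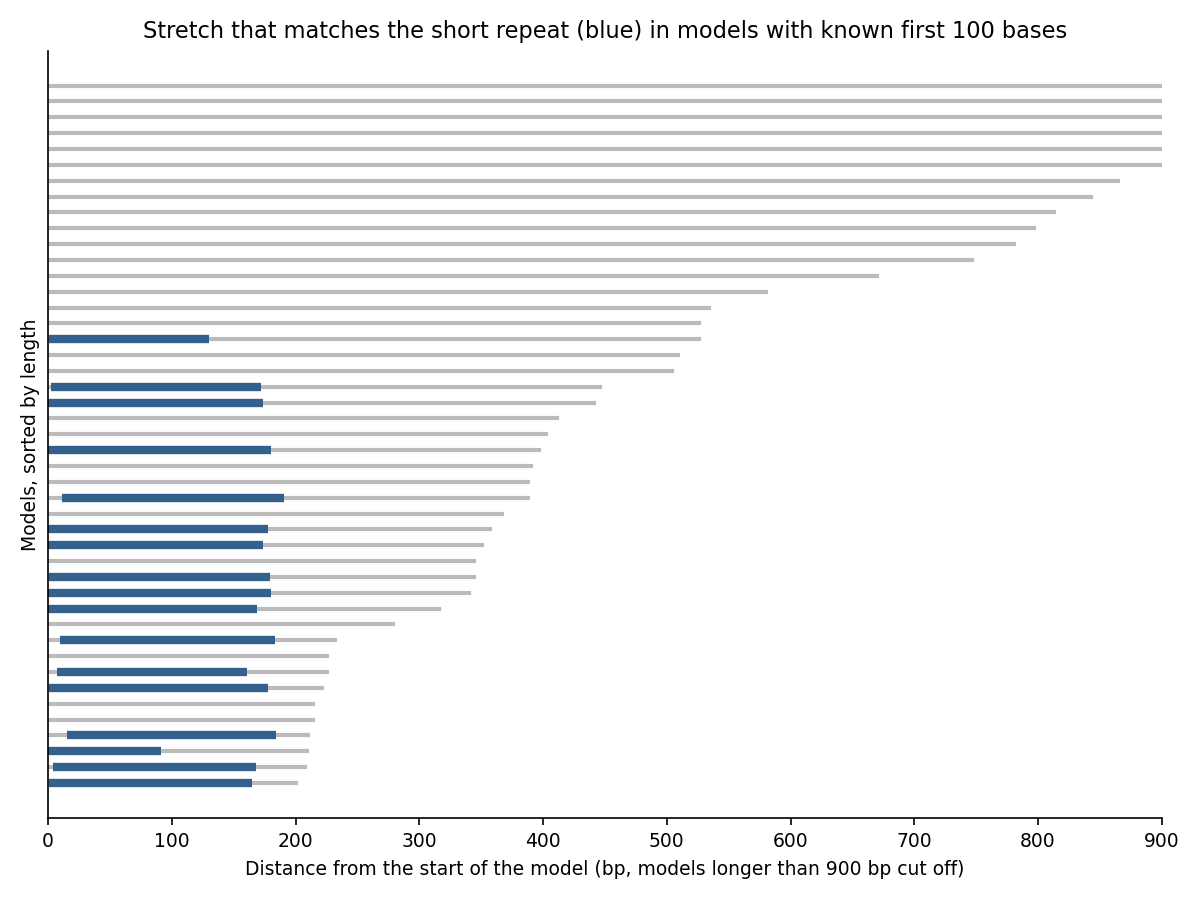
Each line is a member whose first 100 bases are known, sorted by length and drawn from its start to its end in bp (cut at 900 bp), with the stretch that matches the first 180 bases of the Gm37696 member in blue. The blue stretches of the 17 matching members begin within 20 bases of the start, and 16 of the 17 members are under 450 bp. The alignment at base 261 of the 2810403D21Rik member is not drawn.

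The members were short as a group. Their median length was 347 bp, with quartiles of 244 and 699.5 bp and a range from 200 to 11355 bp. The bovine background was longer, with a median of 911.5 bp (quartiles 488 and 1629 bp). Members under 250 bp made up 27.2% in mouse (608 of 2232) and 3.43% in bovine (16 of 466). Mouse unspliced models inside introns had a median of 308 bp over 1855 models. Spliced models between genes had a median spliced length of 875 bp. Just outside the rule, the 1781 models between genes with 2 exons had a median of 810 bp (quartiles 492 and 1634 bp).

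Beyond 1 kb the lengths gathered in 3 narrow windows. The windows were set after the lengths had been seen, as at least 3 adjacent 20-bp bins with 8 or more members each, or 100-bp bins with 7 or more from 3 kb up. The first ran from 1600 to 1679 bp and held 137 members, against 9 in the 80 bp below it and 11 in the 80 bp above it. Within it, 89 members lay between 1620 and 1639 bp, and the most frequent single length was 1635 bp with 12 members. The second ran from 2240 to 2319 bp with 51 members, against 6 below and 11 above. The third ran from 6000 to 6399 bp with 51 members, against 6 in the 400 bp below and 13 in the 400 bp above. The 3 windows together held 239 members, or 10.7% (9.45% to 12.1%).

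Of these windows, unspliced models inside mouse introns met the same bin rule only in the first, with 89 models against 5 below and 13 above. That rule asks for fixed counts, and the set inside introns is smaller. It had 13 models in the second against 3 and 8, and 23 in the third against 1 and 5, so its lengths gathered in the third window too. In the bovine background the first window held 15 models against 9 below and 7 above, the second 4 against 7 and 7, and the third 1 against 1 and 2.

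**Figure D2:**
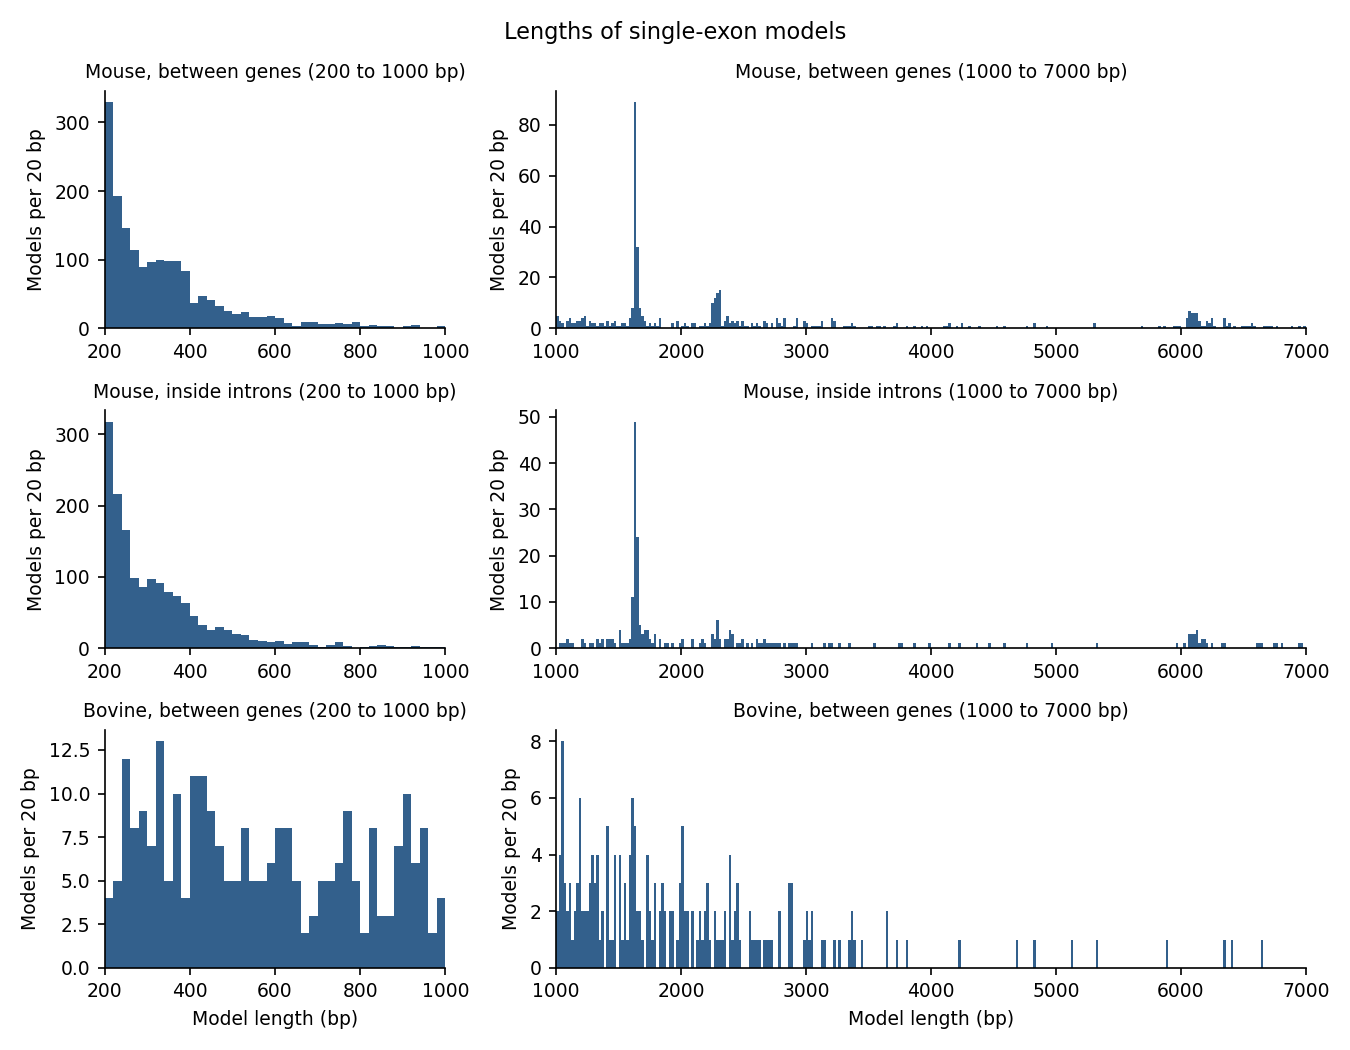
Histograms of model length in 20-bp bins for mouse members, mouse unspliced models inside introns and the bovine background, with lengths from 200 to 1000 bp at the left and 1000 to 7000 bp at the right, each panel on its own count axis. Both mouse sets rise sharply just above 1600 bp, where 89 members lie between 1620 and 1639 bp. Both rise again in the window at 6000 bp, with 51 members and 23 models inside introns. The window at 2240 bp holds 51 members and 13 models inside introns.

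Reference bases covered few models of these lengths, so the structures below are those of single members and were not shown for the windows as a whole. The member on chromosome 13 inside the lncRNA gene Gm48799 (chr13:18002197-18008344, minus strand) is 6148 bp long and starts on the first base of the annotated transcript. Its first 115 bases occur again at bases 5891 to 6005 with 100% identity. Both copies are shown to make this visible, with the repeated bases in capitals and 20 flanking bases on each side of the second copy. The first copy is the annotated first exon, and the bases after it are not known here, so the repeat may be longer.
Gm48799, start (chr13:18008230-18008344): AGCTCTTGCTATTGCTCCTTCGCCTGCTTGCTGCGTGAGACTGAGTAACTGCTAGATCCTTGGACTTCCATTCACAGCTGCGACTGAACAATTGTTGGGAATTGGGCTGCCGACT
Gm48799, near the end (chr13:18002320-18002474): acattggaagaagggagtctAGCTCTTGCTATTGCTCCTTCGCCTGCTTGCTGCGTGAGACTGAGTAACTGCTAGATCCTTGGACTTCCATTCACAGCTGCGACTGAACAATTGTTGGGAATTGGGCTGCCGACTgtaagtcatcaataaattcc
In the second copy the repeat is followed by the letters gtaag and then aataaa, which are those of many splice donors and of the polyadenylation signal. Use of either site was not tested. As background, the MT2 repeat of MERVL has these letters, and no repeat annotation was used to assign them.

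Other members held the same stretch. The 6096-bp member at chr11:33062605-33068700, in which an exon of Gm12114 covers part, matched 108 bases of the repeat at 99.1% identity, at its bases 5951 to 6058. The 6732-bp member at chr4:101407073-101413804 matched 110 bases at 94.5% identity, from base 5949 to 6058. A 2494-bp member at chr12:12863256-12865749 matched 101 bases at 98.0% identity, from base 2315 to 2415. In these 3 members the known stretch lay toward the 3′ end of the model, and their first 200 bases are all unknown, so a first copy could not be looked for. In a 569-bp member at chr3:119831983-119832551 the stretch lay at the start instead, with 73 bases at 98.6% identity from base 3 to 75. A 5309-bp member, in which an exon of Gm23606 covers part, matched 127 aligned bases at 94.5%, from its base 5109 to 5229. The matched bases of the Gm48799 member, 5844 to 5970, run into the second copy. Bases 5153 to 5229 of the 5309-bp member also matched 77 bases of the first copy at 97.4%. Of the 3 members of the window with at least 50 known bases, the 6135-bp member at chr7:44156320-44162454 had 943 known and matched none of the Gm48799 bases.

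The window at 1600 to 1679 bp had 4 members with at least 50 known bases, and the other 3 each matched part of the longest known of them, in Gm42553. The 1648-bp member at chr5:43059242-43060889 (plus strand) is covered by Gm42553 over 1629 bases. Its bases 14 to 151 occur again at bases 1505 to 1642 with 100% identity. The known bases are those of the annotated exon, which begins with the first copy and ends with the second, so the repeat may go on beyond what is known. The copies are shown in capitals with 20 flanking bases.
Gm42553, start (chr5:43059255-43059412): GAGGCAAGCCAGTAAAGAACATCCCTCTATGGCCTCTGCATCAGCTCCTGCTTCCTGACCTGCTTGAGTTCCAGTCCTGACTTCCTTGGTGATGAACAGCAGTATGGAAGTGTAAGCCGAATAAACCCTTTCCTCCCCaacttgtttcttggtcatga
Gm42553, end (chr5:43060726-43060883): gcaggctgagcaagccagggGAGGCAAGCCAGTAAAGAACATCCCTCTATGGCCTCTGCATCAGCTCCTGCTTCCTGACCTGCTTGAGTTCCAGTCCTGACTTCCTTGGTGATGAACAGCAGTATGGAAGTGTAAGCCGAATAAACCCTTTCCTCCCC
Within the copy, AATAAA begins at base 120. The 1637-bp member at chr3:43547175-43548811 matched the Gm42553 stretch over 1109 aligned bases at 97.2% identity. The 1617-bp member at chr10:50333665-50335281 matched over 988 aligned bases at 95.04%, and the 1647-bp member at chr7:36301156-36302802 over 101 bases at 98.0%. The stretch known in the chromosome 7 member is not known in the other 2, so these were not compared with it.

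No member of the window at 2240 to 2319 bp had 50 known bases. A longer member of 3707 bp on chromosome 1 (chr1:5307737-5311443, plus strand), which starts 2 bases before the annotated start of Gm37567, was the nearest in kind. Its bases 3 to 157 occur again at bases 2127 to 2281 with 99.4% identity. Here too the known bases are those of the annotated exon, 2279 bp, whose ends are the outer ends of the copies. The copies are shown in capitals.
Gm37567, start (chr1:5307739-5307913): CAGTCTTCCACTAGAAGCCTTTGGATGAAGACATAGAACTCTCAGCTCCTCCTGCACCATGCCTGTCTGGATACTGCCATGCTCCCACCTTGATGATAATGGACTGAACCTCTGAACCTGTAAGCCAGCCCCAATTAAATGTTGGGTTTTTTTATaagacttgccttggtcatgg
Gm37567, later copy (chr1:5309843-5310017): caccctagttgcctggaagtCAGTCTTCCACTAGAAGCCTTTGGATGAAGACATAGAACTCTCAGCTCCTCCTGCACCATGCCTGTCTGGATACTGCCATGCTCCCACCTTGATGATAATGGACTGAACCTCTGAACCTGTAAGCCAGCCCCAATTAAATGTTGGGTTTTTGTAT
Between its copies this member also shared 312 aligned bases at 85.6% identity with the Gm42553 member. The families of the windows at 1.6 and 2.3 kb are not named here.

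Starts of members were also used by spliced models. A spliced model on the same strand began within 10 bp of the start of 139 of the 2232 members, or 6.23%. Among members of 6000 to 6399 bp this held for 20 of 51 (39.2%, 25.8% to 53.9%), among those of 2240 to 2319 bp for 12 of 51 (23.5%, 12.8% to 37.5%), among those of 1600 to 1679 bp for 9 of 137 (6.57%, 3.05% to 12.1%) and among those under 450 bp for 10 of 1453 (0.688%, 0.331% to 1.26%). Most of the 139, 88, were among the 540 members of other lengths (16.3%, 13.3% to 19.7%). Shared starts were not counted for other kinds of model, so they are not shown to be particular to the members. Of the 20 in the longest window, 13 had a spliced partner with a first exon of 100 to 140 bp. In 6 of those 20, a partner had a first exon of exactly 115 bp, which is also the length of the annotated first exon of Gm48799. That exon's end sets the length of the repeat given above, so the repeat is no separate evidence for this length.

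For most of these starts the partner was another model between genes. Of the 139 members, 117 shared a start with a spliced model of class u, and 15 with a spliced model that is assigned to a gene on its own strand, 16 genes in all. Neo1, a receptor of the netrin and repulsive guidance families, had 5 models that start within 10 bp of the 6357-bp member at chr9:59046310-59052666 and have a first exon of 370 bp. Zfp647, a zinc finger gene, had a model with a first exon of 116 bp from the 6065-bp member at chr15:76965012-76971076, and Gm46534 used the same start. Endod1 had a model with a first exon of 6070 bp from the 9297-bp member at chr9:14416168-14425464. Arap2, which encodes a GTPase-activating protein, had 2 models with first exons of 120 bp from the member at chr5:62772616-62775553. Kctd18 (189 bp) and Cldn34d, of the claudin family (122 bp), had such first exons too. Fsd1 had a model with a first exon of 2230 bp from the 2272-bp member at chr17:55981734-55984005.

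The 10 longest members ran from 7855 to 11355 bp. The longest lay at chr10:83768659-83780013, 5.90 kb from 1500009L16Rik, and 3 spliced models shared its start with a first exon of 6460 bp. Of the 10, 6 shared a start with a spliced model. In 4 of these 6 the first exon was 6007, 6070, 6078 or 6460 bp long, and in the other 2 it was 119 and 1662 bp. Among members more than 50 kb from a gene, the 5 longest lay on chromosomes X, 3, 9, X and 13. The farthest of these 5 was the 8183-bp member at chr3:12248646-12256828, 1809 kb from Snx16.

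Distance to genes was measured to the outer ends of 14090 named genes that had a model on their own strand in the same library. These spans include the library's own extensions of a gene, and 63 members overlapped such a span on either strand. The median distance of members was 17.2 kb (quartiles 5.65 and 71.8 kb), against 40.7 kb for spliced mouse models between genes and 36.1 kb for the bovine background. Members under 450 bp had a median of 14.9 kb and the 540 longer members outside the windows 14.0 kb, so these medians did not rise with length. More than 100 kb from any gene, however, lay 14.7% of the former (12.9% to 16.7%) and 21.9% of the latter (18.4% to 25.6%). Members in the windows at 1600, 2240 and 6000 bp had medians of 175, 181 and 64.2 kb. More than 50 kb from any gene lay 29.8% of all members (27.9% to 31.7%), 24.1% of those under 450 bp, 29.1% of the longer ones outside the windows, 70.8% of those of 1600 to 1679 bp (62.4% to 78.3%), 64.7% of those of 2240 to 2319 bp and 54.9% of those of 6000 to 6399 bp. The intervals of the 3 long windows do not overlap that of the short members (21.9% to 26.4%). Measured to GENCODE genes, which include genes with no model here, the share was 8.33% of all members (7.22% to 9.56%), 5.85% under 450 bp (4.70% to 7.18%), 24.1% at 1600 to 1679 bp (17.2% to 32.1%), 25.5% at 2240 to 2319 bp (14.3% to 39.6%) and 17.6% at 6000 to 6399 bp (8.40% to 30.9%). The bovine share was 45.1% (40.5% to 49.7%), measured to genes with a model in the bovine library, so its mouse counterpart is the 29.8%.

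**Figure D3:**
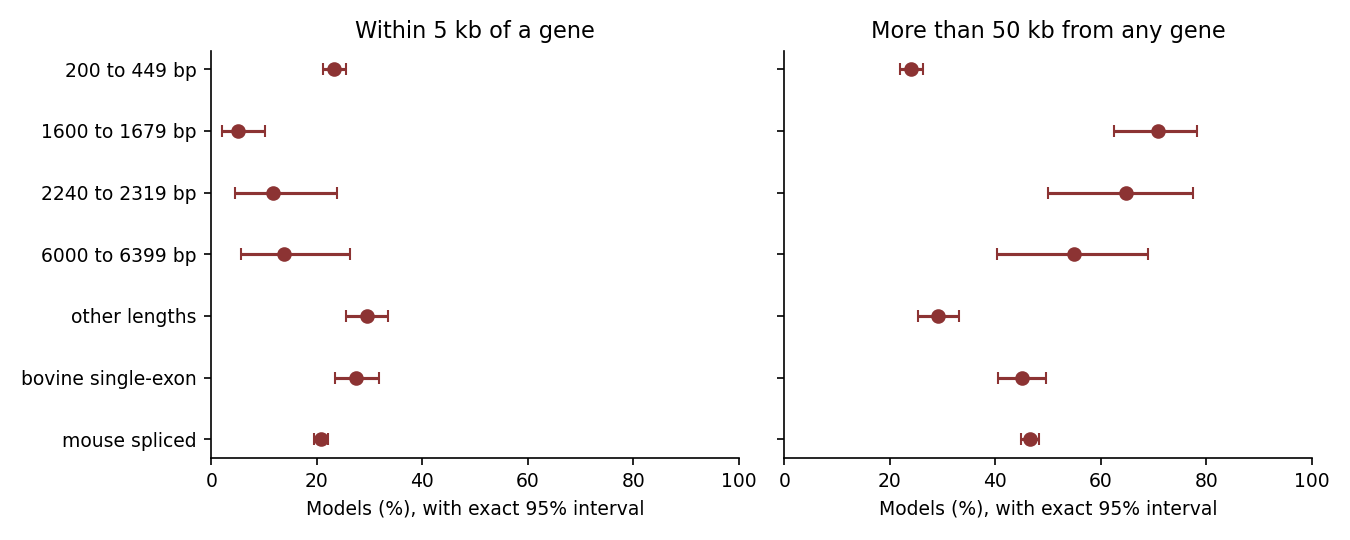
Share of models in percent that lie within 5 kb of a gene, overlaps included (left), and more than 50 kb from any gene (right), for mouse members by length, the bovine background and spliced mouse models between genes, with exact 95% intervals that cover counting error only. Of members of 1600 to 1679 bp, 70.8% lay more than 50 kb from a gene, against 24.1% of members under 450 bp. The interval of the former overlaps those of the other long windows.

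Within 5 kb of a gene on any side and strand, overlaps included, lay 517 members (23.2%, 21.4% to 24.97%), and 946 (42.4%) with GENCODE genes. Within 5 kb downstream of a gene end on the same strand lay 74 members (3.32%, 2.61% to 4.14%), and 1 of the 74 was within 2 kb. Models there carry a class code of their own, p, which 108 mouse models had, all unspliced, so this count is limited by the rule. Within 5 kb upstream of a gene start on the opposite strand lay 200 members (8.96%, 7.81% to 10.2%), against 54 of 466 bovine models (11.6%, 8.83% to 14.8%). Within 1 kb the shares were 2.33% in mouse (52 members, 1.74% to 3.04%) and 8.37% in bovine (39 models, 6.02% to 11.3%). The 52 mouse members had a median length of 384 bp and the 39 bovine models 1400 bp.

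The closest divergent members began 1 bp from Ppid, a cyclophilin, 9 bp from Arpc5l, a subunit of the actin-branching complex, 14 bp from Ddx39b, an RNA helicase of mRNA export, and 17 bp from Pik3c2a, a lipid kinase. The member at chr16:95991000-95991812 (plus strand, 813 bp) started 40 bp from Psmg1, a chaperone of proteasome assembly. Its first 100 bases, from the RefSeq promoter window, contrast with the short repeat above, and capitals mark each CG, of which there are 13.
Psmg1 (chr16:95991000-95991099, plus strand): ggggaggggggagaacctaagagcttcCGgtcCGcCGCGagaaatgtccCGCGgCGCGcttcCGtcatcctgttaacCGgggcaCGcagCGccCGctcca
RefSeq promoter windows overlapped 24 members in 25 windows. In 24 of the 25 the member was on the opposite strand to the gene. Models that reach into a gene on its own strand carry other class codes, so this count too is limited by the rule. The 25 windows held a median of 22 CG (5 to 38), against 7 over all 32851 windows, which were not limited to genes with a model here.

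Against the gene lists, 5 of the 30 found genes of the mouse 2-cell burst had a member within 5 kb, and these 5 members were 2089 to 2375 bp long. Over all 56455 gene symbols the share with a member this near was 2.37%, and over the 14090 genes with a model on their own strand it was 4.75%. The 2375-bp member at chr12:87881282-87883656 lay 3329 bp downstream of Gm2016, and the 2343-bp member at chr12:88264925-88267267 lay 3360 bp downstream of Gm5662, each on the strand opposite to the gene. The 2220-bp member at chr7:103243947-103246166 lay 3171 bp downstream of Usp17ld, a deubiquitinase gene, on its strand. The 2089-bp member at chr13:120310079-120312167 lay 4695 bp upstream of Tcstv3 on the opposite strand, and the 2174-bp member at chr13:119926864-119929037 overlapped Gm21761. These genes sit in clusters of near-identical copies, where reads can be placed on more than 1 copy. Of the 20 genes for silencing of repeats, Uhrf1, a reader of hemimethylated DNA, had a 924-bp member 1354 bp upstream on the opposite strand. None of the 7 Obox, 22 maternal oocyte, 10 cumulus and granulosa, 6 sperm and 6 blood genes had a member within 5 kb.

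GENCODE M21, a second mouse annotation of the same build, had an exon on the same strand under 40 members (1.79%, 1.28% to 2.43%) and on the opposite strand under 19. The span of a GENCODE gene of either strand was overlapped by 231 members, or 10.3%. Of the 40, 10 were in lincRNA genes, 7 in protein-coding genes and 6 in loci of the type TEC. Of the 40, 8 lay in genes with a name rather than a Gm or Rik number. Overlaps of more than 400 bases were found for AV356131 (750 bases, chr7:116443482-116444324), an olfactory receptor gene, Olfr374 (411 bases, chr8:72112588-72112998), and Btbd2 (407 bases, chr10:80656665-80657158). The others were AC105065.1 (332 bases, chr18:81097753-81098096), Gtpbp4-ps2, a pseudogene (256 bases, chr7:14837215-14838038), Tmem79 (246 bases, chr3:88334732-88336191), Slbp, the histone mRNA binding protein (210 bases, chr5:33634966-33635175), and Spindoc (168 bases, chr19:7354038-7354245). The members in Slbp and Spindoc are among those that matched the short repeat near their start, at 90.5% and 85.4% identity.

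Most members stood alone. No other model shared the assembly locus of 2085 members (93.4%), and this held for 99.2% of those under 450 bp and 56.9% of those of 6000 to 6399 bp. These shares were not counted for other kinds of model. Another member lay within 10 kb of 265 members (11.9%, 10.6% to 13.3%), and another bovine model of the kind within 10 kb of 20 of the 466 (4.29%, 2.64% to 6.55%). The mouse set is the larger, and such a share rises with the number of models, so the 2 values are not a comparison of spacing. Joined at that distance, the mouse members formed 110 pairs and 15 groups of 3, and no larger group, so the 15 tie as the largest. The group at chr11:6538883-6541130 had members of 339, 289 and 384 bp, 5757 bp from Ccm2. The group at chr4:132303707-132306921, with 365, 750 and 325 bp, lay 351 bp from Rab42. In the group at chr3:88273539-88279541 all 3 members, of 435, 394 and 474 bp, lay on the plus strand.

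The plus strand held 1174 of the 2229 members with a strand, or 52.7% (50.6% to 54.8%). Members were found on all autosomes and on X, Y and the mitochondrial chromosome. Over the autosomes they made up 5.17% of models (2083 of 40297), from 4.06% on chromosome 8 to 7.48% on chromosome 18. On X they made up 8.61% (145 of 1685, 7.31% to 10.05%), and this interval overlaps those of some autosomes. On the bovine X the background models made up 1.28% (19 of 1487, 0.771% to 1.99%). The Y chromosome had 3 members among 29 models.

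**Figure D4:**
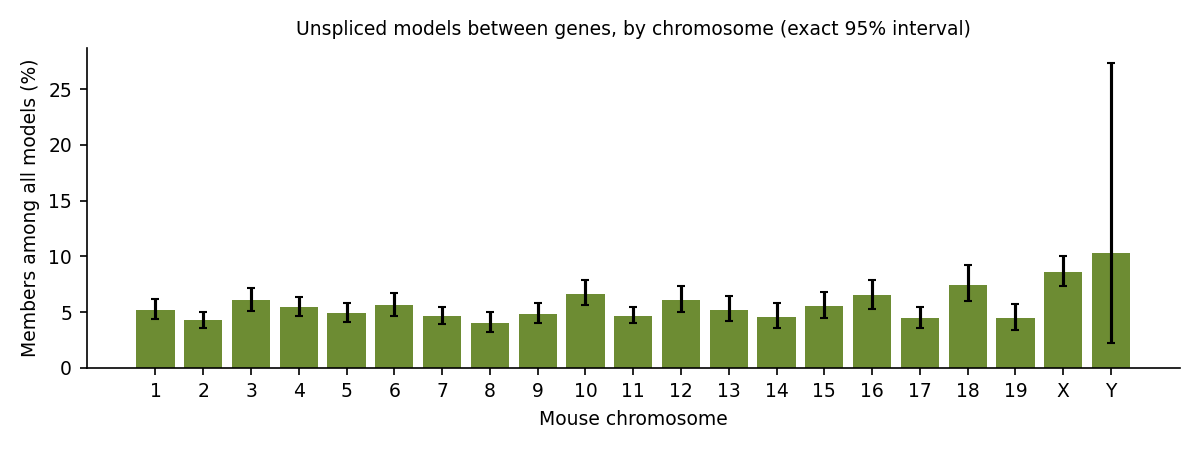
Members as a percentage of all mouse models on each chromosome, with exact 95% intervals, the mitochondrial chromosome left out. X stands at 8.61% and the autosomes between 4.06% and 7.48%, and the Y bar rests on 29 models.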

How the data were processed

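Each library had 1 set of StringTie transcript models, deposited by the authors, with exon positions, a class code and the closest reference transcript, per the file headers and attributes. Builds are mm10 and bosTau9, per the submitters' processing notes. The annotation behind the class codes, the aligner, filters and settings were not given in the sources used here. The files hold no read counts, so no model could be weighted by depth, and a shortest length of 200 bp in the mouse members leaves out anything briefer.

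Genes were spans of named models with class code =, c, k, m, n, j or o. Reference bases came from GENCODE M21 transcripts and RefSeq promoter windows (250 bases before to 50 after a start). All 2093 bases known from more than 1 of these agreed. Alignments used blastn 2.17.0 (same strand for models, e-value 1e-05, a fixed search space, no masking). Positions, intervals and base look-up were tested on simulated models. Intervals used scipy 1.17.1. With 1 library per species no test was made. Alternatives changed windows, length limits, the gene annotation and the strand. Members and gene lists were chosen with earlier results of these data known. Named members were the 10 longest, the largest groups within 10 kb (15 tied, so 3 are given), those within 5 kb of a list gene, those overlapping an annotated exon of a named gene and the 5 longest beyond 50 kb. Sequences, genes with a shared start and divergent genes were chosen after their values were seen.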

Additional observations from a re-analysis of the deposited data

How the results depend on the processing

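No paired analysis was possible because each species had 1 library. No members overlapped on the same strand, so joining such members left all 2232 loci and every value as it was. Of all models the members were 5.31%, of class u models 39.9%, of single-exon models 40.3% and, from 500 bp up, 1.92%. Same-strand downstream members went from 3.32% within 5 kb to 0% within 1 kb (0 of 2232), 7.48% within 10 kb, 7.08% with GENCODE genes and 8.29% on either strand. Divergent members went from 8.96% to 2.33% within 1 kb, 15.2% within 10 kb and 14.5% with GENCODE genes. Members more than 50 kb from a gene went from 29.8% to 8.33% with GENCODE genes, which also hold genes with no model here, to 43.2% from 500 bp up, to 47.4% at 20 kb and 20.9% at 100 kb. Exon overlap was 1.79%, 0.941% where 50% or more of the member was covered and 2.64% on either strand. The median length of 347 bp became 1636 bp from 500 bp up. Neighbours fell from 11.9% within 10 kb to 7.66% within 5 kb and rose to 27.3% within 50 kb. The share with the short repeat was 37.8%, and 61.5% under 450 bp, an alternative chosen after seeing the data. With no read counts, what depth limits is unknown.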
